A study of Rattus norvegicus with 72 samples.

Results

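The dorsal vagal complex (DVC) was compared between the middle and the later part of the light phase, at Zeitgeber time (ZT) 5 and ZT9, hours counted from lights on in a 12 h/12 h light/dark cycle. The comparison comprised 32 of the 72 samples of the series, chosen by the region and time point in their labels, with 17 DVC samples at ZT5 and 15 at ZT9. All 145 assayed genes were examined. Each sample was the pooled bilateral micropunch tissue of 1 animal, and each animal gave 1 time point.

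The DVC is a brainstem structure made up of the nucleus tractus solitarius, the dorsal motor nucleus of the vagus and the area postrema. It receives sensory input from the viscera through the vagus nerve and returns autonomic output to the gut, heart and other organs. Many of its inputs act on G-protein-coupled receptors, and the genes assayed here cover such receptors, their G-protein, kinase and phosphatase relays, transcription factors, ion channels and the GABA, glutamate and angiotensin systems.

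All animals were individually housed, alcohol-naïve, male Sprague Dawley rats on a restricted ration of a maltose-dextrin liquid diet, so calorie restriction was shared by ZT5 and ZT9 and was not itself compared. Transcript levels were measured by microfluidic quantitative RT-PCR after a preamplification. A C_T is the cycle at which a reaction crosses the detection threshold, so a lower C_T means more transcript and 1 cycle stands for about 2-fold at full amplification efficiency. The deposited normalized C_T values (quantile normalization by the authors) were used, and each change below is −ΔΔC_T at ZT9, the ZT5 mean minus the ZT9 mean in cycles on the log2 scale. A change above 0 is higher expression at ZT9, and fewer cells of a type cannot be told apart from less transcript per cell in such tissue.

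Rgs4 and Rgs2, which encode regulators of G-protein signalling, were lower at ZT9 and carried the smallest p-values of the panel. The transcription factor genes Nr4a2 and Fosl1, the telomere-binding protein gene Terf1 and the gene for protein kinase C epsilon (PKCe) were higher at ZT9. The methyl-CpG-binding protein gene Mbd1 was lower. Limma called 11 of 145 genes (7.59%) at a Benjamini-Hochberg adjusted p of at most 0.05, 8 of them higher at ZT9 (5.52%) and 3 lower (2.07%). The other 4 of the 8 higher genes, Ppp2r1a, Ntrk2, Clu and Pebp1, were among the assays with the lowest C_T, and their changes depended on the normalization, as described with their C_T ranks below. Mbd1 and PKCe were also not called after median centring (limma adjusted p = 0.364 and 0.111). Of the 145 genes, 32 (22.1%) had an unadjusted p of at most 0.05, and 21 of them did not pass the adjusted threshold.

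The assays behind these results are identified by their primers, which are shown for Rgs4, Rgs2, Nr4a2, Fosl1 and PKCe. The direction of these genes held under each setting run, as did that of Terf1 and Ntrk2.
Rgs4 forward: caagatgtgcaaaggactcg
Rgs4 reverse: ccagccgatgtttcatatcc
Rgs2 forward: aacttttatcaagccttctcctga
Rgs2 reverse: acgctctgaatgcagcaag
Nr4a2 forward: ccacgtcgactccaatcc
Nr4a2 reverse: tagtcagggtttgcctggaa
Fosl1 forward: gcaagcgcagacacagac
Fosl1 reverse: cactgacagcgttgatgctt
PKCe forward: agccgtcacttcgaggact
PKCe reverse: cgatgatcacgtagacttttcct
The amplicons were 74 bp for Rgs4, 98 bp for Rgs2, 66 bp for Nr4a2, 68 bp for Fosl1 and 61 bp for PKCe. The assay named PKCe carries the NCBI Gene identifier 29340, the RefSeq gene Prkce, which encodes the epsilon isoform.

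**Figure D1:**
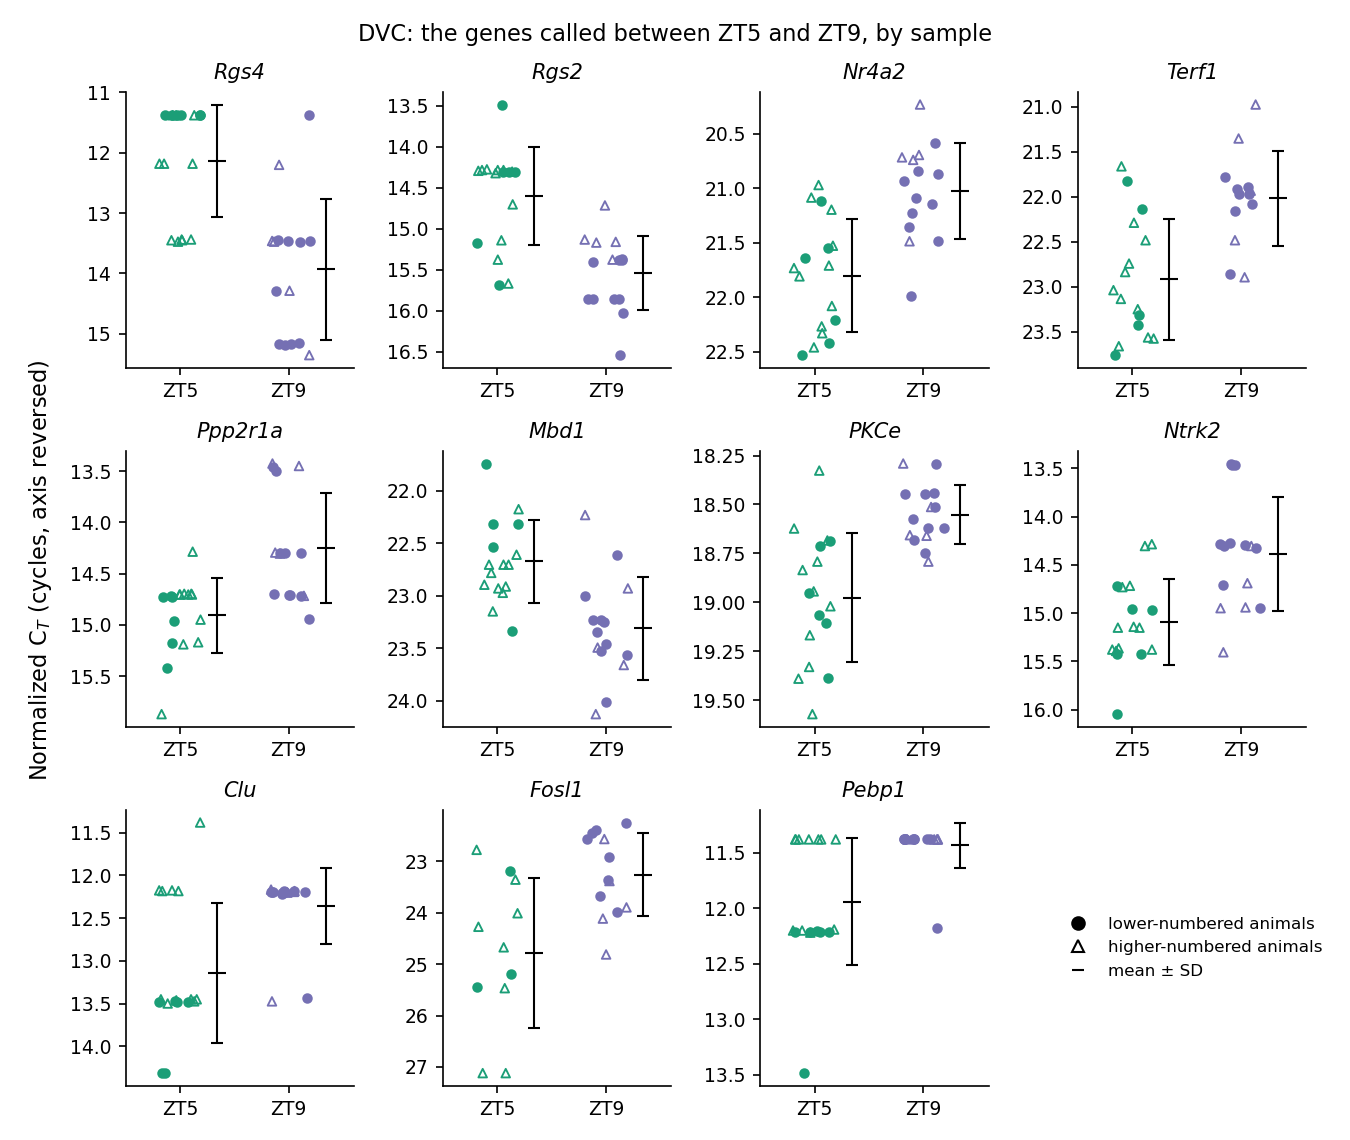
Normalized C_T in cycles (vertical axes reversed, so that higher expression is at the top) of the 11 called genes in each DVC sample at ZT5 and ZT9. Filled circles are lower-numbered and open triangles higher-numbered animals, and bars give the mean ± SD. Rgs4, Rgs2 and Mbd1 sit lower at ZT9 and the other 8 genes higher, with overlap between the time points for every gene.

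Rgs4 (NCBI Gene 29480, GRCr8 chromosome 13, 84469593 to 84475884) and Rgs2 (NCBI Gene 84583, chromosome 13, 58350063 to 58352666) encode proteins that speed the GTPase activity of G-protein alpha subunits and so shorten receptor signals. The normalized C_T of Rgs4 ran from 11.38 to 13.47 with a median of 11.38 at ZT5, and from 11.38 to 15.35 with a median of 13.47 at ZT9. At ZT9, 14 of 15 samples lay above the ZT5 median and 7 lay above every ZT5 sample, while 1 sample reached the ZT5 minimum. The change of Rgs4 was -1.80 ± 0.35 cycles (SE, limma adjusted p = 0.00122). The deposited value cannot go below 11.38, where 9 of 17 ZT5 samples lay, and the change was -2.81 after median centring. In the 12 samples with at most 2 failed reactions, whose 7 ZT5 samples were all higher-numbered animals, it was -1.02 and not called (limma adjusted p = 0.438), and Terf1 alone of the 11 called genes was still called. The C_T of Rgs2 ran from 13.49 to 15.68 with a median of 14.31 at ZT5, and from 14.72 to 16.54 with a median of 15.38 at ZT9. All 15 ZT9 samples lay above the ZT5 median, and 12 of 17 ZT5 samples lay below every ZT9 sample. The change of Rgs2 was -0.94 ± 0.19 cycles (SE, limma adjusted p = 0.00122), 1.92-fold lower.

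The other 7 regulators of G-protein signalling on the panel did not pass the test. All 9 had a change below 0, with a median of -0.35 cycles against 0.02 over all 145 genes, and 6 of 9 were below 0 in both groups of animals described below. Rgs7, which acts on inhibitory G-protein signalling in neurons, had a change of -0.35 ± 0.14 cycles (SE, limma adjusted p = 0.132). Rgs14 had a change of -0.37 ± 0.21 and Rgs12 of -0.61 ± 0.48 cycles. The change of Rgs12 was -0.07 without ZT9 replicate 13, whose normalized C_T was 27.12, the highest value of the deposited scale. All 9 were also below 0 after median centring of the C_T values, 8 with the animal group as a factor, 5 after subtraction of Hprt and 3 without normalization, where the median change of all genes was itself 0.49. All 9 lay below the median change of all genes without normalization. The called members were 2 of 9, beside 2.07% of all genes called as lower.

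Of the 13 transcription factors, 2 were called as higher, beside 5.52% of all genes. Nr4a2 (NCBI Gene 54278), an orphan nuclear receptor and immediate early gene, had C_T values from 20.97 to 22.53 with a median of 21.73 at ZT5, and from 20.23 to 21.99 with a median of 20.93 at ZT9. At ZT9, 14 of 15 samples were below the ZT5 median, and 8 were below every ZT5 sample. The change was 0.78 ± 0.17 cycles (SE, limma adjusted p = 0.00326), 1.71-fold higher with an interval of 1.35 to 2.18. Fosl1 (NCBI Gene 25445), a member of the Fos family of AP-1 subunits, was measured in 11 of 17 ZT5 and 13 of 15 ZT9 samples. Its C_T ran from 22.78 to 27.12 with a median of 24.68 at ZT5, and from 22.25 to 24.81 with a median of 23.36 at ZT9. The change of Fosl1 was 1.52 ± 0.44 cycles (SE, limma adjusted p = 0.0239), 2.88-fold with a wide interval of 1.55 to 5.35. Fosl1 was not called when ZT5 replicate 12 (adjusted p = 0.0527) or ZT5 replicate 13 (adjusted p = 0.0523) was left out. In each of these samples Fosl1 had 27.12, the highest value of the deposited scale, which is assigned by rank. Its change was 1.33 cycles (adjusted p = 0.0541) with the animal group as a factor.

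Creb1, Sp1 and Egr1 had unadjusted p-values of at most 0.05 and were not called. Creb1, the cAMP response element-binding protein gene, had a median C_T of 25.77 at ZT5 and 24.68 at ZT9, with 13 of 14 ZT9 values below the ZT5 median. Its change was 0.84 ± 0.28 cycles (limma adjusted p = 0.0593). After median centring it was 1.25 (adjusted p = 0.00458), and with the animal group as a factor 0.61 (adjusted p = 0.207). Sp1, a general promoter-binding factor, had a change of 0.36 ± 0.13 cycles, and Egr1, an immediate early zinc-finger factor, one of 0.55 ± 0.26 cycles. Jund, a Jun-family AP-1 subunit, had a change of -0.43 ± 0.23 cycles. Over the 13 transcription factors the median change was 0.19 cycles, with 9 above 0 and 4 below.

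Terf1 (NCBI Gene 297758), which encodes a protein that binds telomeric repeats, had a C_T from 21.66 to 23.76 with a median of 23.09 at ZT5, and from 20.98 to 22.89 with a median of 21.96 at ZT9. All 13 ZT9 samples with a value lay below the ZT5 median. The change was 0.90 ± 0.22 cycles (SE, limma adjusted p = 0.00847), 1.86-fold higher. Mbd1 (NCBI Gene 291439), which encodes a protein that binds methylated CpG sites and represses transcription, had a median C_T of 22.70 at ZT5 and 23.35 at ZT9, with ranges of 21.74 to 23.33 and 22.23 to 24.13. At ZT9, 13 of 15 samples lay above the ZT5 median, and 8 lay above every ZT5 sample. The change of Mbd1 was -0.64 ± 0.16 cycles (SE, limma adjusted p = 0.00847), and it was -0.40 (adjusted p = 0.364) after median centring. The other members of this group were not called. Dmap1, a partner of DNA methyltransferase 1, had a change of -0.49 ± 0.24 cycles, and Mgmt, the O6-methylguanine repair enzyme gene, one of 0.39 ± 0.25 cycles.

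PKCe had the narrowest spread at ZT9 among these genes, with C_T values from 18.29 to 18.79 and a median of 18.57, against 18.33 to 19.57 and a median of 18.95 at ZT5. All 15 ZT9 samples lay below the ZT5 median, and 11 of 17 ZT5 samples lay above every ZT9 sample. The change was 0.42 ± 0.11 cycles (SE, limma adjusted p = 0.00847), 1.34-fold higher with an interval of 1.15 to 1.56. It was 0.37 after median centring over all genes (adjusted p = 0.111) and 0.38 after median centring within each set of assays (adjusted p = 0.00153). No other of the 9 protein kinase C assays was called. Prkci, an atypical isoform, had a change of 0.13 ± 0.16 cycles, and Prkca, a conventional one, a change of -0.12 ± 0.23.

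Ppp2r1a, Ntrk2, Clu and Pebp1 were called as higher at ZT9 on the deposited values. Ppp2r1a encodes the scaffold subunit of protein phosphatase 2A, Ntrk2 the BDNF receptor TrkB, Clu the secreted chaperone clusterin, and Pebp1 the Raf kinase inhibitor protein. Their changes were 0.65 ± 0.16, 0.70 ± 0.18, 0.78 ± 0.23 and 0.51 ± 0.16 cycles (SE), with limma adjusted p-values of 0.00847, 0.00847, 0.0239 and 0.0389. The median C_T of Ppp2r1a was 14.72 at ZT5 and 14.30 at ZT9, and that of Ntrk2 was 15.15 and 14.30. The median C_T of Clu was 13.46 at ZT5 and 12.19 at ZT9, and that of Pebp1 was 12.20 and 11.38. For each of the 4 genes, 14 or 15 of the 15 ZT9 samples lay below the ZT5 median, and the ranges overlapped.

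These assays had, with Rgs4, Rgs2 and Hprt, the lowest mean C_T ranks within a sample. This order also depends on each assay's efficiency and is not one of transcript levels. Hprt had mean ranks of 6.35 at ZT5 and 5.47 at ZT9 and was not called (change 0.20 cycles, limma adjusted p = 0.463). Quantile normalization gives each sample the same set of values in the order of its own C_T ranks. At ZT5 a typical sample had 11.38 at rank 1 (the lowest C_T), 12.20 at rank 2, 13.47 at rank 3 and 14.30 at rank 4, whereas from rank 5 the steps were under 0.25 cycles. Rgs4 had rank 1 in 9 of 17 ZT5 samples and in 1 of 15 ZT9 samples. Pebp1 had rank 1 in 7 of 17 ZT5 samples and in 14 of 15 ZT9 samples. The mean rank of Rgs4 was 1.76 at ZT5 and 4.33 at ZT9, and that of Rgs2 was 5.18 and 8.73. The mean rank of Clu was 2.76 and 2.13, that of Ppp2r1a 5.88 and 4.2, and that of Ntrk2 6.76 and 4.60.

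**Figure D2:**
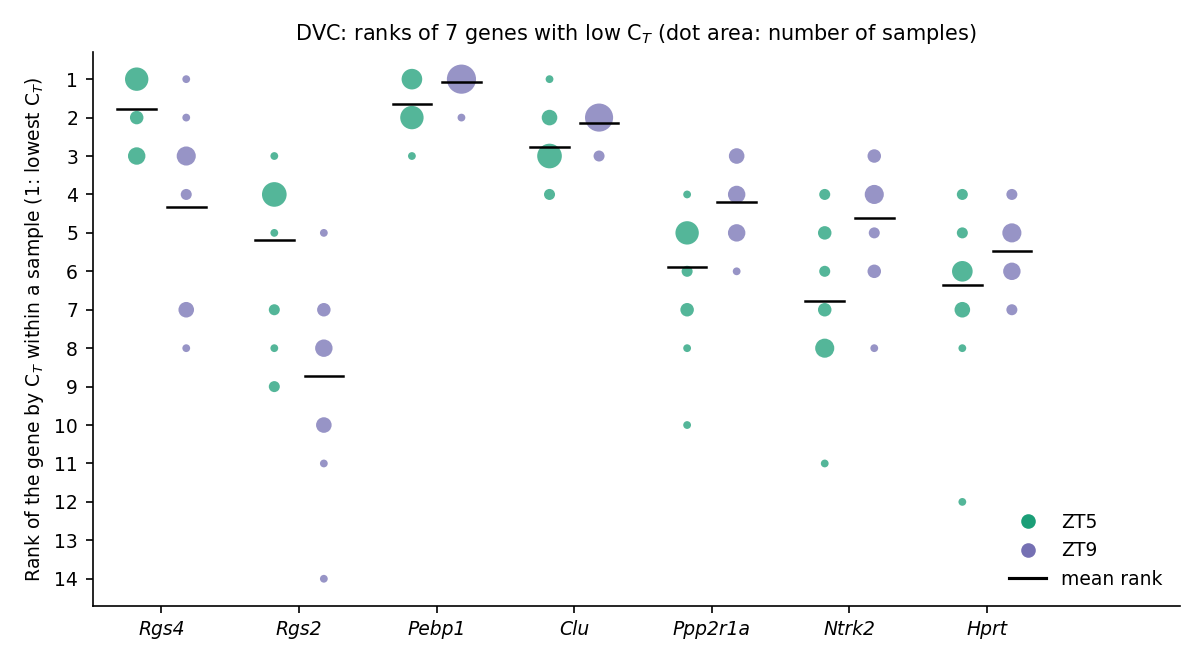
Rank of 7 genes with low C_T within each DVC sample at ZT5 and ZT9 (vertical axis reversed, 1 is the lowest C_T). Dot area is proportional to the number of samples at a rank and black lines are mean ranks. Rgs4 and Rgs2 moved to higher rank numbers at ZT9 and the other 5 genes to lower ones.

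With Rgs4 and Rgs2 left out before quantile normalization of the other 143 genes, an alternative chosen after seeing the data, the changes became 0.16 for Ppp2r1a, 0.35 for Ntrk2, 0.07 for Clu and 0.09 cycles for Pebp1. Their adjusted p-values were then 0.655, 0.268, 0.798 and 0.655. Under this setting limma called 5 genes (3.5%), Nr4a2, Terf1, Fosl1, PKCe and Mbd1, all of them also called on the deposited values. After median centring, which subtracts each sample's median C_T and keeps the distances between genes, the changes of Ppp2r1a, Ntrk2, Clu and Pebp1 were -0.007, 0.07, 0.02 and 0.03 cycles. Rgs4 then had a change of -2.81 (adjusted p = 0.000283), Rgs2 of -1.39 (adjusted p = 0.000207), Nr4a2 of 0.90 (adjusted p = 0.00541), Terf1 of 1.14 (adjusted p = 0.00541) and Fosl1 of 1.86 cycles (adjusted p = 0.0218). The phosphatase gene Ptpn2 and Creb1 were the only genes called after median centring and not on the deposited values. Ptpn2, which encodes a tyrosine phosphatase acting on JAK and STAT proteins, had a change of 0.58 ± 0.21 (adjusted p = 0.0844) on the deposited values and 0.92 (adjusted p = 0.0111) after median centring.

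**Figure D3:**
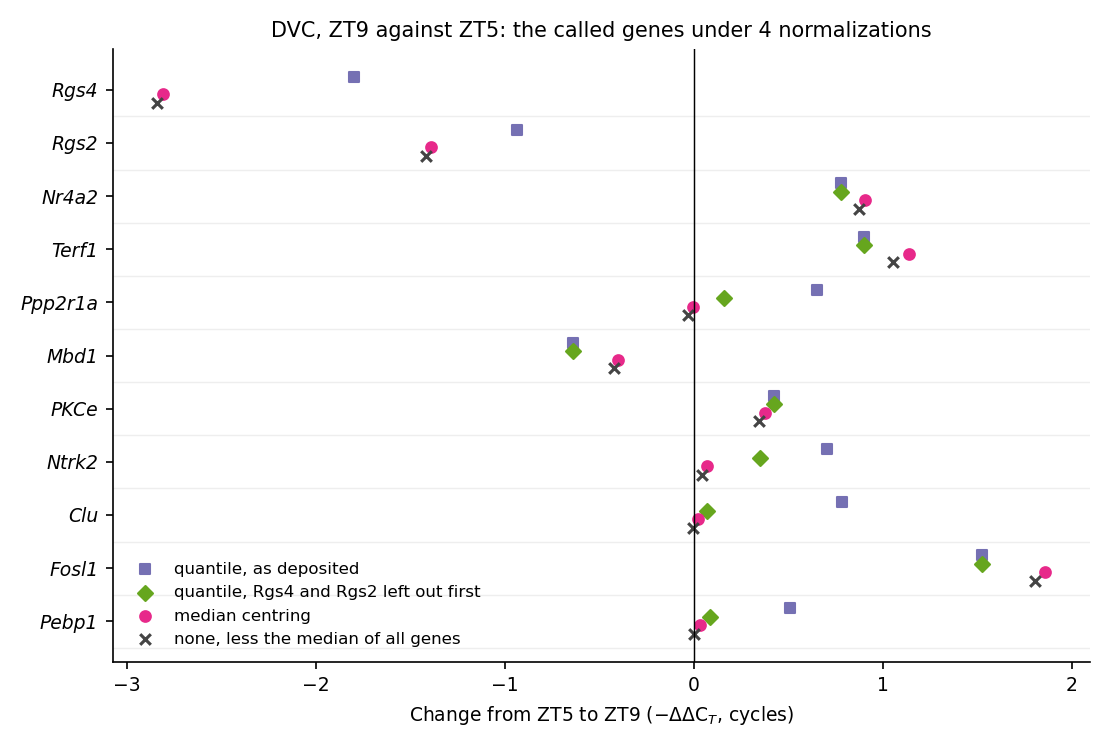
Change from ZT5 to ZT9 in cycles of the 11 called genes under the deposited quantile normalization, quantile normalization without Rgs4 and Rgs2, median centring, and no normalization less the median change of all genes. Ppp2r1a, Ntrk2, Clu and Pebp1 lie between -0.034 and 0.07 under the last 2 settings. Rgs4, Rgs2, Nr4a2, Terf1, Fosl1, PKCe and Mbd1 keep their side of 0 in every setting plotted for them, as do Ntrk2 and Pebp1.

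Without normalization the C_T of Rgs4 had an SD of 1.09 cycles at ZT5 and a mean of 13.36 ± 1.62 at ZT9 (SD, n = 17 and 15), a change of -2.35 cycles, and that of Rgs2 was 13.86 ± 0.95 and 14.79 ± 1.06. The C_T of Pebp1 was 11.29 ± 0.56 and 10.80 ± 0.60, a difference of 0.49 cycles against a median of 0.49 over all genes. The median C_T of a sample over all genes was 19.30 ± 0.82 at ZT5 and 18.84 ± 0.70 at ZT9, a difference of -0.46 cycles (permutation test, two-sided, p = 0.10). The number of failed reactions per sample was 3.41 ± 1.62 and 2.87 ± 1.41 (permutation test, two-sided, p = 0.359). The part of these sample-wide differences in the gene changes was not tested beyond the alternatives given.

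The promoters of Rgs4 and Rgs2, which fell, and of Nr4a2 and Fosl1, which rose, are shown because each holds the 5-base core of the cAMP response element, TGACG on either strand, here in capitals. The 250 bases before an annotated transcription start are given 5′ to 3′ on the gene's strand, from RefSeq. The start used for Nr4a2 lies inside the annotated span of the gene.
Rgs4, GRCr8 chr13:84475885-84476134, minus strand: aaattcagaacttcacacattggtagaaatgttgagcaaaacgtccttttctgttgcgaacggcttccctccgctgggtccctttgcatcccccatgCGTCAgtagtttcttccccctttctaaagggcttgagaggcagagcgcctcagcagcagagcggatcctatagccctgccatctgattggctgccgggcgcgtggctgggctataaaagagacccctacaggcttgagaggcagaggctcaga
Rgs2, GRCr8 chr13:58352667-58352916, minus strand: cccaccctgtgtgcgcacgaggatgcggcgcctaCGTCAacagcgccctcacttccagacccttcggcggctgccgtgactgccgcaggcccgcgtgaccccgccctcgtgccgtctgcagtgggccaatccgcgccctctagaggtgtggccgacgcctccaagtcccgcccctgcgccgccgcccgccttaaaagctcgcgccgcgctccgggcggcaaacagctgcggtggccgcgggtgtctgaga
Nr4a2, GRCr8 chr3:62104888-62105137, minus strand: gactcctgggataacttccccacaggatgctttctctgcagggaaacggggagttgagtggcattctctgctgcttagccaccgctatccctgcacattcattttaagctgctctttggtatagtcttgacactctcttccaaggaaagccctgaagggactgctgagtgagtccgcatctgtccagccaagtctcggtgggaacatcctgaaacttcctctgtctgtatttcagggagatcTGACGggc
Fosl1, GRCr8 chr1:212183635-212183884, plus strand: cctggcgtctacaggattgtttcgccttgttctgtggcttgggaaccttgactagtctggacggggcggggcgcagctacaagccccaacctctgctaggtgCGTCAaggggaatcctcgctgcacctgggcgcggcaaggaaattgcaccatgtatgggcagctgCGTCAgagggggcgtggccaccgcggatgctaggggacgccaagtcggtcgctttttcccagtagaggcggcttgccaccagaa
The motif TGACG or its complement CGTCA was present in 4 of the 8 called genes with a promoter entry, in 30 of the 113 panel genes with one (26.5%), and in 18.2% of 33469 promoters of the same length. The E-box CACGTG, the site of the core clock factors, was in none of the 8, in 11 of 113 panel promoters (9.73%) and in 5.59% of all promoters. These matches describe the sequence letters only.

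Across the other functional groups most genes did not pass the test. The ion channel genes were all above 0, with changes between 0.26 and 0.48 cycles and a median of 0.32, and none was called. They included Hcn2, a hyperpolarization-activated cation channel (0.35 ± 0.16), the potassium channel genes Kcna2 (0.27 ± 0.23) and Kcnj9 (0.48 ± 0.39, and 0.17 without ZT5 replicate 17), and the sodium channel beta subunit gene Scn4b (0.26 ± 0.22). All 5 were also above 0 within each group of animals and under each normalization, and 4 of 5 without the 3 samples farthest from their group. The 5 genes of the PI3 kinase, Akt and mTOR pathway had changes between 0.02 and 0.28 cycles, none called, with the largest for the regulatory subunit gene Pik3r3 (0.28 ± 0.15).

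**Figure D4:**
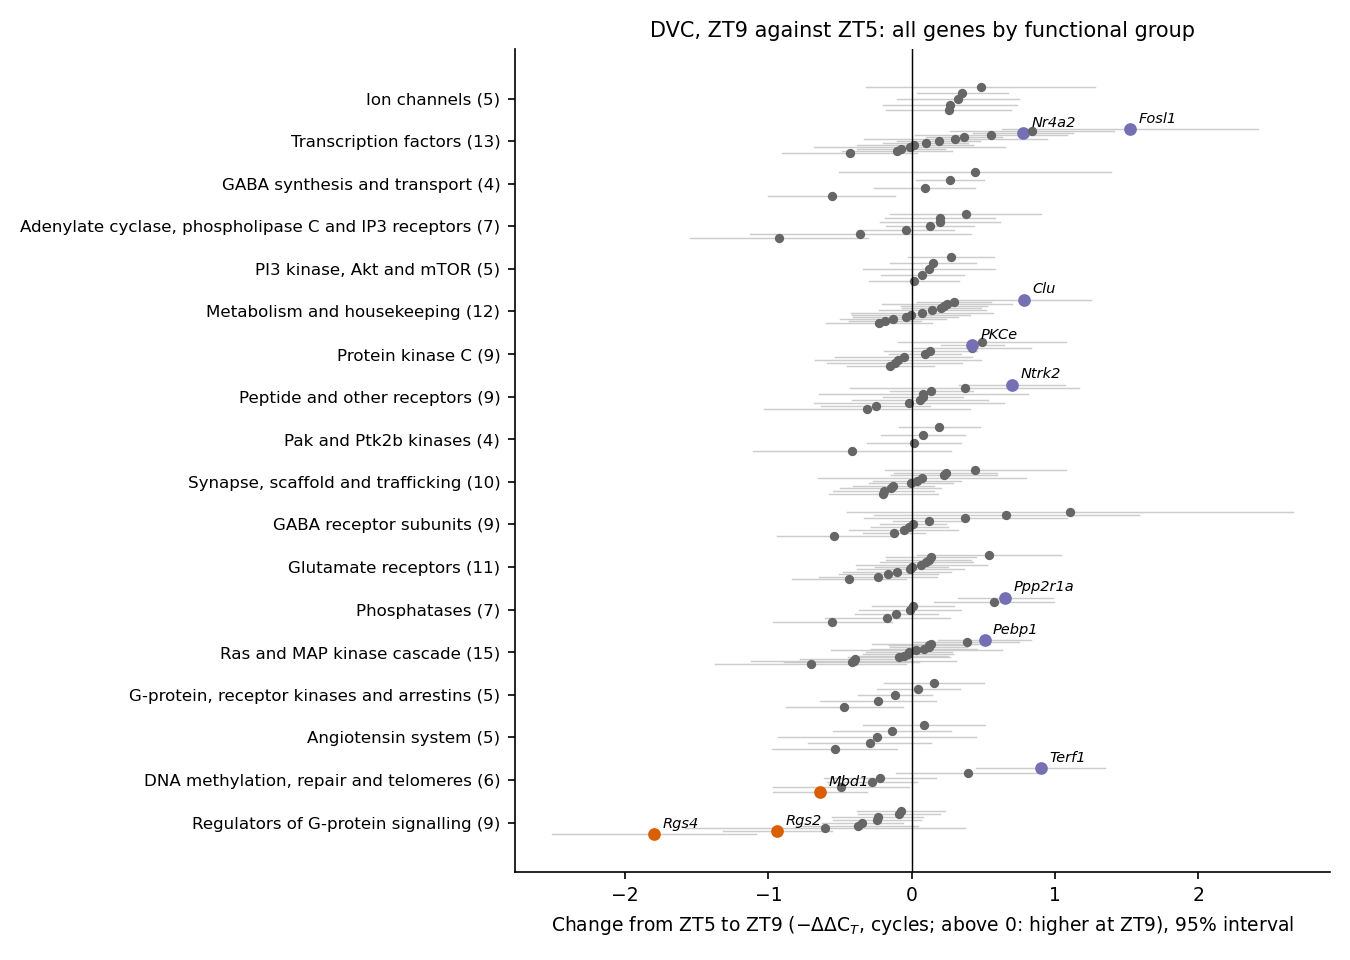
Change from ZT5 to ZT9 (−ΔΔC_T in cycles, above 0 is higher at ZT9) of all 145 genes, in rows by functional group with the number of genes in brackets. Points are estimates with 95% confidence intervals, and coloured, named points are the 11 called genes. All 9 regulators of G-protein signalling lie below 0 and all 5 ion channel genes above.

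Among the GABA system genes none was called. Gabrg1, a receptor subunit found in glia and some neurons, had a change of -0.54 ± 0.20 cycles (limma adjusted p = 0.0844), and Slc32a1, the vesicular GABA transporter gene, one of -0.56 ± 0.22 (adjusted p = 0.125) with values in 12 of 17 ZT5 and 14 of 15 ZT9 samples. Gabrr2 and Gabrd had large and poorly measured changes of 1.10 ± 0.74 and 0.66 ± 0.45 cycles, Gabrr2 with 8 values at each time point. Gabra5, a receptor alpha subunit gene, was measured with one of the narrowest intervals beside PKCe, at -0.12 (-0.34 to 0.10) cycles.

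Glutamate receptors gave no call among 11 genes, with a median change of -0.001. The metabotropic receptor gene Grm5 had a change of -0.44 ± 0.20 and the NMDA receptor subunit gene Grin2b one of 0.54 ± 0.25 cycles. In the angiotensin system, Agtrap, whose product binds the type 1 angiotensin receptor and promotes its internalization, had a change of -0.54 ± 0.21 cycles (limma adjusted p = 0.127), and Ren1, the renin gene, one of -0.29 ± 0.21. Adrbk1, now named Grk2, the kinase that phosphorylates active G-protein-coupled receptors, had a change of -0.47 ± 0.20 cycles (limma adjusted p = 0.165). Gprk6, another receptor kinase gene, had one of -0.24 ± 0.20.

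Among phospholipase C, adenylate cyclase and IP3 receptor genes, Plcb2 had the largest change, -0.93 ± 0.30 cycles (limma adjusted p = 0.0577), and -0.44 (adjusted p = 0.482) after median centring. Plcb2 had values in 15 of 17 ZT5 and 13 of 15 ZT9 samples. Adcy9, an adenylate cyclase gene, had a change of 0.38 ± 0.26. In the Ras and MAP kinase cascade, Mapk3, which encodes ERK1, had a change of 0.39 ± 0.18, and the Ras GTPase-activating protein genes Rasa2 and Rasa1 had changes of -0.71 ± 0.33 and -0.40 ± 0.19 cycles. The phosphatase catalytic subunit gene Ppp1cc had a change of -0.56 ± 0.20 (adjusted p = 0.0862). The peptide receptor genes gave Ntrk2 as their only call, with Crhbp and Crhr1 of the corticotropin-releasing hormone system at 0.37 ± 0.39 and -0.31 ± 0.35. No scaffold, trafficking or Pak kinase gene was called, and Mpdz had the largest change among the scaffold genes, at 0.44 ± 0.31. Over the panel, 52 of 145 genes had a 95% interval inside 0.5 cycles in both directions.

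The animals carry running numbers, and the ZT5 and ZT9 animals were unevenly spread over them. They were split at a fixed number, that of the animal directly before the first ZT3 animal, and those below it, called lower-numbered here, gave 6 ZT5 and 10 ZT9 samples, and the higher-numbered ones 11 and 5. In the lower-numbered animals the median C_T was 20.15 ± 0.72 at ZT5 and 19.03 ± 0.74 at ZT9, a difference of -1.12 cycles (exact permutation test, two-sided, p = 0.0115). The ZT5 samples also had more failed reactions, 4.83 ± 0.41 against 3.0 ± 1.33 (exact permutation test, two-sided, p = 0.0110). In the higher-numbered animals the difference of medians was -0.38 cycles (exact permutation test, two-sided, p = 0.110). What the number stands for beyond the order of the animals is not stated.

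Each of the 11 called genes changed in the same direction in both groups of animals, and 8 of the 11 had the larger change in the lower-numbered ones. The calls were made on the samples of both groups together, so this agreement is not independent of them. Of all 145 genes, 51 were above 0 in both groups and 39 were below 0 in both. Within the lower-numbered animals limma called 16 genes (11%), 8 in each direction, of which 9 were called over all samples. Within the higher-numbered animals it called 0 genes, with 10 at an unadjusted p of at most 0.05 (6.9%) and a smallest adjusted p of 0.224. Rgs4 changed by -2.64 ± 0.46 cycles in the lower-numbered animals, where all 6 ZT5 samples had the value of rank 1 (exact permutation p = 0.00137), and by -1.22 ± 0.49 in the higher-numbered ones (exact permutation p = 0.0279). Nr4a2 changed by 0.76 ± 0.23 (exact permutation p = 0.00712) and 0.97 ± 0.27 cycles (exact permutation p = 0.00389).

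Terf1 changed by 0.82 ± 0.31 (exact permutation p = 0.0225) and 1.0 ± 0.34 cycles (exact permutation p = 0.0151). Ppp2r1a changed by 0.59 ± 0.23 (exact permutation p = 0.0174) and 0.84 ± 0.26 cycles (exact permutation p = 0.00504) on the deposited values. Over all animals its change was -0.007 after median centring and -0.026 with the animal group added. Agtrap and Adrbk1 completed the 6 genes (4.14% of 145) with an unadjusted limma p of at most 0.05 in each group of animals. Agtrap changed by -0.88 ± 0.20 and -0.68 ± 0.31, and Adrbk1 by -0.68 ± 0.17 and -0.77 ± 0.29 cycles. Both were higher in C_T at each time point in the higher-numbered animals, with ZT5 means of 20.22 and 21.10 for Agtrap and of 19.17 and 19.92 for Adrbk1. With the animal group as a factor their changes were -0.78 and -0.72 cycles, each with an adjusted p of 0.00363, and limma then called 18 genes, 10 of them higher at ZT9 and 10 of them among the 11 called without the factor.

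**Figure D5:**
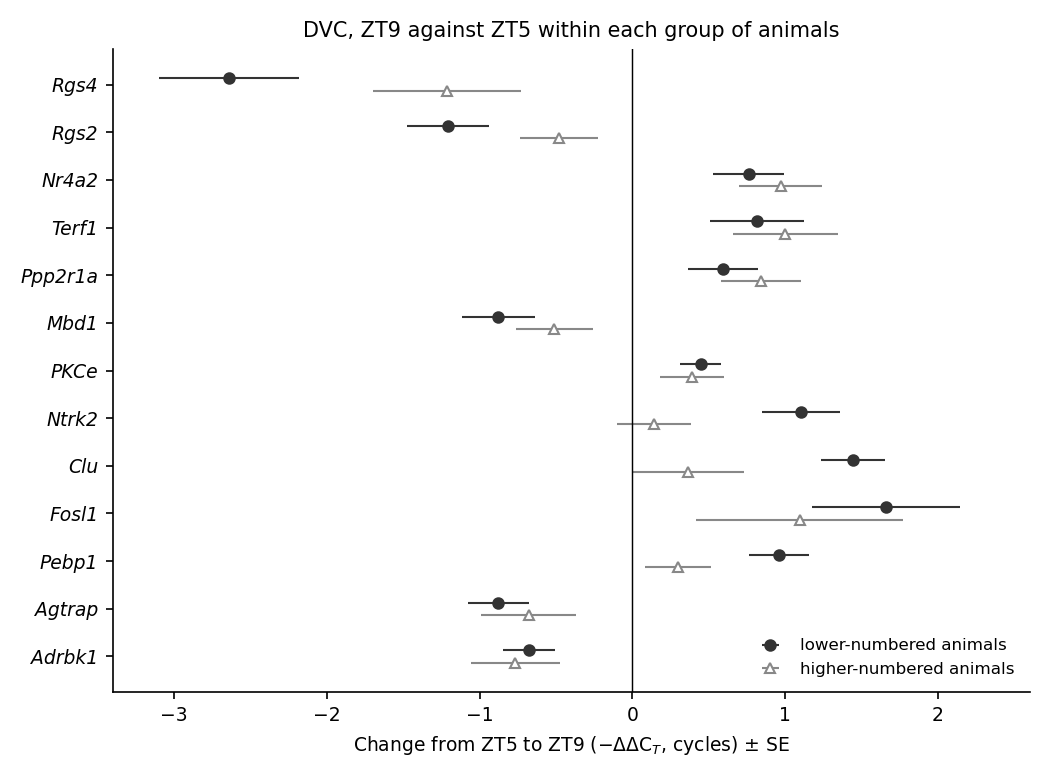
Change from ZT5 to ZT9 (−ΔΔC_T in cycles ± SE) of the 11 called genes, Agtrap and Adrbk1 in the lower-numbered animals (filled circles, 6 ZT5 and 10 ZT9 samples) and in the higher-numbered animals (open triangles, 11 and 5). All estimates keep their side of 0 in both groups. Those of Nr4a2, Terf1, Ppp2r1a and Adrbk1 are farther from 0 in the higher-numbered animals, and those of the other genes are closer to 0.

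Ntrk2, Clu and Pebp1 changed by 1.10 ± 0.25, 1.44 ± 0.21 and 0.96 ± 0.20 cycles in the lower-numbered animals and by 0.14 ± 0.24, 0.36 ± 0.37 and 0.30 ± 0.22 in the higher-numbered ones. The test of the difference between the groups of animals called 0 of 145 genes, with 10 at an unadjusted p of at most 0.05 (6.9%) and a smallest adjusted p of 0.462. Rgs4 had rank 1 in 6 of 6 lower-numbered ZT5 samples and Pebp1 in 7 of 11 higher-numbered ones. Rgs2 changed by -1.21 ± 0.27 and -0.48 ± 0.26, Mbd1 by -0.88 ± 0.24 and -0.51 ± 0.25, and PKCe by 0.45 ± 0.13 and 0.39 ± 0.21. Fosl1 changed by 1.66 ± 0.49 and 1.09 ± 0.68 cycles, with 3 ZT5 values in the lower-numbered animals. In the higher-numbered animals the exact permutation p was 0.0662 for Rgs2, 0.0465 for Mbd1, 0.0467 for PKCe and 0.197 for Fosl1. There it was 0.551 for Ntrk2, 0.504 for Clu and 0.2445 for Pebp1. In the lower-numbered animals the exact permutation p was at most 0.0242 for each of these genes.

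At ZT3, where 7 DVC samples of higher-numbered animals were measured, the mean C_T was 14.51 ± 0.74 (SD) for Rgs4 and 15.28 ± 0.17 for Rgs2. In the higher-numbered animals these were beside 12.54 ± 0.93 and 14.63 ± 0.52 at ZT5 and 13.76 ± 1.16 and 15.11 ± 0.24 at ZT9. For Nr4a2 the means in those animals were 20.93 ± 0.41, 21.74 ± 0.51 and 20.78 ± 0.45 at ZT3, ZT5 and ZT9, and for Terf1 22.07 ± 0.43, 22.93 ± 0.61 and 21.93 ± 0.79. Fosl1 had means of 25.50 ± 1.08, 24.85 ± 1.61 and 23.76 ± 0.84, with values in 5, 8 and 5 samples. The changes of ZT3 and of ZT9 share the ZT5 samples.

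In the central nucleus of the amygdala (CeA), a forebrain region with 26 ZT5 and ZT9 samples, 25 of them from animals that also gave a DVC sample, limma called 2 genes (1.41% of those tested) between ZT5 and ZT9, Nr4a2 and the sorting nexin gene Snx10. Nr4a2 changed by 1.16 ± 0.26 cycles there, and Mbd1 by -0.61 ± 0.17 (limma adjusted p = 0.0522). Rgs4 changed by 0.44 ± 0.76 cycles in the CeA against -1.80 in the DVC, and Clu by -0.27 ± 0.25 against 0.78. The test of the difference between regions called 0 genes, with 20 at an unadjusted p of at most 0.05 (14.1%) and a smallest adjusted p of 0.240, shared by Rgs4 and Clu. Fosl1 was not compared in the CeA, where it was measured in too few samples.

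Genes that mark particular cells were looked at for the composition of the punches. Slc6a2, the noradrenaline transporter gene that marks the noradrenergic neurons of the DVC, was measured in 31 of 32 samples and in 1 of 33 CeA samples, with mean C_T values of 21.42 ± 0.39 at ZT5 and 21.62 ± 0.64 at ZT9 and a change of -0.20 ± 0.19. Of the genes that mark GABAergic neurons, Gad1 had a change of 0.09 ± 0.17 and Slc32a1 one of -0.56 ± 0.22 (limma adjusted p = 0.125). After median centring their changes were 0.04 and -0.09. The astrocyte-expressed genes Clu, Aldh1a1 and Gabrg1 had changes of 0.78, 0.14 and -0.54 on the deposited values and of 0.02, 0.07 and -0.53 after median centring. Rgs9 and Rgs14 were listed as genes of forebrain neurons, expected to be low in the DVC. Both were nevertheless detected in all 32 samples, with mean C_T values of 18.66 and 21.37 at ZT5 and changes of -0.08 and -0.37. The part of cell composition in the changes was not tested.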

How the data were processed

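C_T values came from the authors' microfluidic qRT-PCR of DVC punches, with RNA from either of 2 extraction kits, a preamplification and 145 assays. The authors deposited the C_T values of all 72 samples and their quantile-normalized C_T values, both on a log2 scale of cycles. Quantile normalization with limma 3.58.1 in R 4.3.3 gave the authors' values to within 4.99e-09 cycles. The authors' means and differences per time point were not used.

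The 17 ZT5 and 15 ZT9 samples were matched to the values by animal number. Limma was fitted to all 145 genes with Benjamini-Hochberg adjustment, a change from the methods' uncorrected t-test, which was run as an alternative. Failed reactions, 101 in the 32 samples, stayed missing, and 112 genes had a value in every sample. Sample number and failed reactions limit the precision, since starting molecules were not counted. Permutation tests were exact with under 10 samples in a group and used 100000 draws otherwise. The genes, groups and lists were chosen with earlier results of these data known. Genes were named if called, if at an unadjusted p of at most 0.05 in both groups of animals, if called in a test of a difference, if among the 5 largest remaining changes or the 3 narrowest intervals, or as up to 2 examples of a group. Sp1, Gabrg1, Rgs7, Mapk3, Rasa1, Jund, Prkci, Prkca and some ion channel and marker genes were added after their values were seen. Some genes that the rule names are not reported here. Of the 145 gene identifiers, 144 were in the RefSeq table of GRCr8, 16 under another symbol. The fit was tested on simulated data. Python 3.11.15 and matplotlib 3.10.9 made the tables and figures. Alternatives covered the test, covariates, normalization, genes, samples and each replicate. Those that left out Rgs4 and Rgs2 before normalization, left out the 3 samples farthest from their group, or joined median centring with the group of animals were chosen after seeing the data.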

Additional observations from a re-analysis of the deposited data

Results flagged for a closer look

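Among the 11 called genes, the sets of samples formed by time point and group of animals were searched for a sample far from the others. This was done in 31 sets with 4 to 10 values that were not all alike, which left out the 11 higher-numbered ZT5 samples for all genes except Fosl1, and 6 sets held such a sample. In the lower-numbered ZT9 animals, replicate 8 stood apart for 3 genes. It had a normalized C_T of 11.38 for Rgs4 against 13.45 to 15.19 in the other samples, 13.44 for Clu against 12.18 to 12.22, and 12.17 for Pebp1 against 11.38 in all others. It was the only ZT9 sample with Rgs4 at rank 1, with Pebp1 at rank 2 and Clu at rank 3. ZT9 replicate 1 had a C_T of 22.86 for Terf1 against 21.78 to 22.16. In the higher-numbered ZT9 animals, replicate 11 had a C_T of 13.47 for Clu against 12.17 to 12.20, and in the lower-numbered ZT5 animals replicate 6 had 13.49 for Pebp1 against 12.20 to 12.21. Chance alone would mark about 1 in 20 sets of continuous values, and sets of rank values with almost no spread, as for Clu and Pebp1, are not such sets.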

How the results depend on the processing

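Limma called 11 genes on the deposited values, 8 of them higher at ZT9. The methods' t-test without correction called 29 genes, 17 of them higher. With the animal group as a factor limma called 18 genes (10 higher), after median centring 7 (5 higher) and without normalization 6 (5 higher). It called 3 (2 higher) in the samples with at most 2 failed reactions. With Rgs4 and Rgs2 left out before quantile normalization it called 5 (4 higher). The median change of all genes was 0.49 without normalization and 0.26 after subtraction of Hprt. The share of calls that were higher was 72.7% on the deposited values, 58.6% by the t-test, 55.6% with the animal group as a factor, 60.0% with the animal number, 54.5% after median centring within assay sets, 83.3% without normalization and 81.8% after subtraction of Hprt. In the 12 samples with at most 2 failed reactions Terf1 was the only one of the 11 still called, and Rgs4 changed by -1.02 (adjusted p = 0.438). Leaving out 1 sample at a time gave 10 to 15 calls. Without the 3 samples farthest from their group (ZT5 replicates 3 and 17 and ZT9 replicate 12), 14 genes were called, 10 of the 11 among them, and Pebp1 was not (adjusted p = 0.0734). Pebp1 was also not called without any 1 of ZT5 replicates 1, 2, 3, 4, 7, 14 and 17 or ZT9 replicates 1 to 7, 9, 10, 11, 13 and 15, with adjusted p-values up to 0.0634. Creb1 was called without any 1 of ZT5 replicates 3, 5, 7 and 8 or ZT9 replicates 10, 12, 14 and 15, Plcb2 without ZT5 replicates 5, 16 and 18 or ZT9 replicates 7, 12, 13 and 14, and Rasa2 without ZT5 replicate 5. In the lower-numbered animals 16 genes were called, 9 after median centring, 101 without normalization and 11 to 20 with 1 sample left out. In the higher-numbered animals 0 were called, 1 after median centring, 5 without normalization and 0 with any 1 sample left out.

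The change of Ppp2r1a was -0.007 after median centring, -0.046 within assay sets and -0.026 with the group of animals added, that of Clu -0.042 in the last setting, and that of Pebp1 -0.009 within assay sets, -0.062 with the group of animals added and -0.16 in samples with at most 2 failed reactions. In those samples Agtrap changed by 0.005 and Gabrd by -0.37. Without normalization Mbd1 changed by 0.062, Adrbk1 by 0.023, Plcb2 by 0.24, Rasa2 by 0.032 and Gabra5 by 0.18, all below the median of all genes. The tests of a difference between groups of animals and between regions called 0 genes under each alternative run. The causes of these differences were not tested.

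The shared replicate numbers did not pair the samples: over 14 numbers the correlations of deviations ran from -0.35 to 0.19, and 0 ZT5 samples were closest to their own number. With the replicate block 13 genes were called, 9 of the 11 among them.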
